A study of Mus musculus with 12 samples.

Results

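The genes described here are 45 members of mitochondrial and peroxisomal fatty acid oxidation, read on whole-genome expression arrays of mouse liver. They were chosen by name, as genes of the carnitine shuttle, beta-oxidation, omega-oxidation, fatty acid activation and uptake, and their control. All 45 had a probe and passed the filter on dim probes, out of 18108 genes tested, and 42 were well above background on all 12 arrays. All mice were C3H/HeN males of the F2 generation, kept to about 74 weeks of age, when males of this strain often carry liver tumours. The 4 groups, with 3 arrays each, were tumours, non-tumour tissue and normal liver of the arsenite line and non-tumour tissue of the control line. In the arsenite line only the F0 dams drank sodium arsenite, at 85 ppm in tap water from gestation day 8 to 18, and control dams drank plain tap water. Their F1 offspring were mated at 10 weeks, and neither F1 nor F2 mice were given arsenite. Tumours and normal livers of the control line were not analysed here, so no tumour value has a control-line tumour beside it. The labels do not say which samples came from 1 mouse, so p-values measure the spread between these samples.

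Fatty acids are activated to acyl-CoA by synthetases at the cell's membranes, and long chains cross into the mitochondrion as carnitine esters. Cpt1a makes the ester on the outer membrane, Slc25a20 exchanges it across the inner membrane and Cpt2 remakes the acyl-CoA inside. Each turn of beta-oxidation then uses a dehydrogenase, a hydratase, a second dehydrogenase and a thiolase, while peroxisomes shorten very long chains and the cytochrome P450 enzymes of the Cyp4a family oxidise the far end of the chain. In liver the nuclear receptor PPAR-alpha drives many of these genes in fasting, when the acetyl-CoA formed feeds ketone body synthesis.

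Between 40.5% and 46.9% of the spots of an array were well above background, and none was saturated. Levels are given as log2 signal over that array's own 75th percentile, so 0 is the percentile and 1 unit is a 2-fold difference. The summed signal of 12 hepatocyte markers lay at 8439 to 10180 times the percentile in arsenite tumours, against 10150 to 11170 in arsenite non-tumour tissue, so all tumour arrays carried hepatocyte RNA. The 3 tumour arrays shared a slide that held no other group, and so did the arsenite normal arrays. Slide and group therefore cannot be told apart in any tumour comparison or in any comparison with arsenite normal liver. Signals of the 6 bright spike-in RNAs differed by a median of 0.18 log2 units in arsenite tumour minus arsenite non-tumour arrays. The median was -0.10 in tumours minus arsenite normal liver and -0.12 in tumours minus control non-tumour tissue. It was -0.28 in arsenite non-tumour tissue minus arsenite normal liver. In arsenite non-tumour minus control non-tumour tissue, which shared a slide, it was -0.31. In whole tissue, fewer cells of a type and less RNA per cell cannot be told apart.

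Most of the pathway was lower in arsenite tumours than in arsenite non-tumour tissue, with exceptions at the step that activates fatty acids and at the first carnitine enzyme. At an adjusted p under 0.05 in limma's test, 30 of the 45 genes were lower in tumours, where 29.9% of all genes were called lower. Another 6 were higher, where 17.1% of all genes were called higher, and 9 did not pass. The median log2 difference of the 45 genes was -0.88, against -0.13 for all genes. The 6 higher genes were Cpt1a, Cpt1b, Bdh1, Acsl3, Acsl4 and Acsl5. The scaling of the arrays moved the all-gene split: 36.3% of called genes were higher in tumours as reported, 48.1% after quantile normalisation, 53.5% with the percentile over detected probes and 26.5% when scaled to the spike-ins. Under those 3 settings 28, 28 and 30 of the 45 genes were lower in tumours and 5, 6 and 3 were higher.

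**Figure D1:**
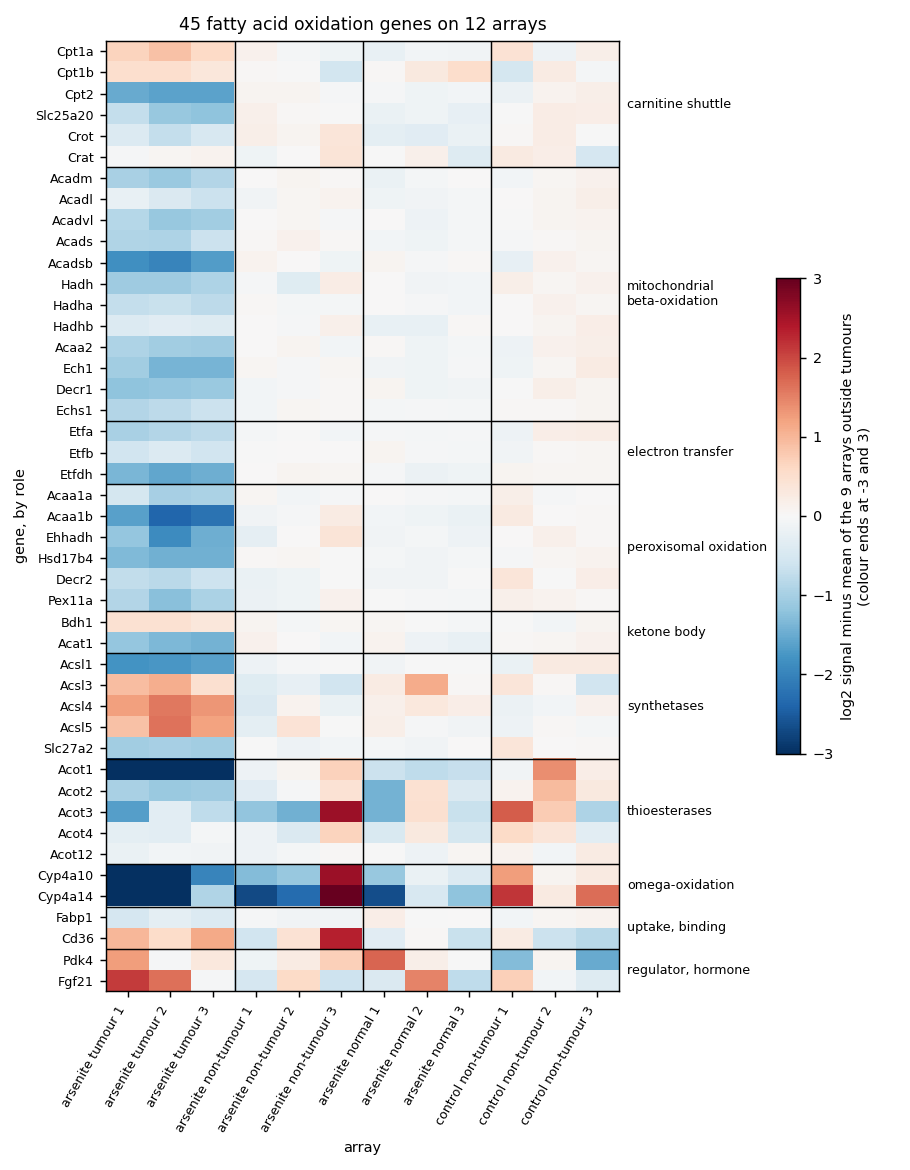
Deviation of each of the 45 genes (rows, by role) on each of the 12 arrays (columns) from its mean over the 9 arrays outside tumours, in log2 units, with colours ending at -3 and 3. The 3 tumour columns on the left are blue for most rows, with red at Cpt1a, Bdh1, Acsl3, Acsl4 and Acsl5, and the array arsenite non-tumour 3 is red at Cyp4a10, Cyp4a14, Acot3 and Cd36.

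Against the other groups the counts were similar in size. Against arsenite normal liver, 28 of the 45 genes were lower in tumours, beside 30.9% of all genes, and 4 were higher, beside 17.1%. Against control non-tumour tissue, 32 were lower, beside 32.2% of all genes, and 5 were higher, beside 16.8%. The median differences of the 45 genes were -0.73 and -0.96, and those of all genes -0.14 and -0.15. Of the called genes, 35.7% and 34.2% were higher in tumours in these comparisons, which became 48.5% and 46.6% after quantile normalisation, 50.6% and 50.8% with the percentile over detected probes, and 47.3% and 49.6% when scaled to the spike-ins. The 3 comparisons use the same tumour arrays. Genes lower in all 3 numbered 28, and Cpt1a, Bdh1, Acsl4 and Acsl5 were higher in all 3. The share of all genes called the same way in all 3 was not counted, so these counts have no background beside them. Crat, Acot3, Acot4, Acot12, Cd36, Pdk4 and Fgf21 were called in none, Cpt1b, Crot, Hadhb, Acsl3, Acot2 and Cyp4a14 in some, and no gene was called in opposite directions.

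**Figure D2:**
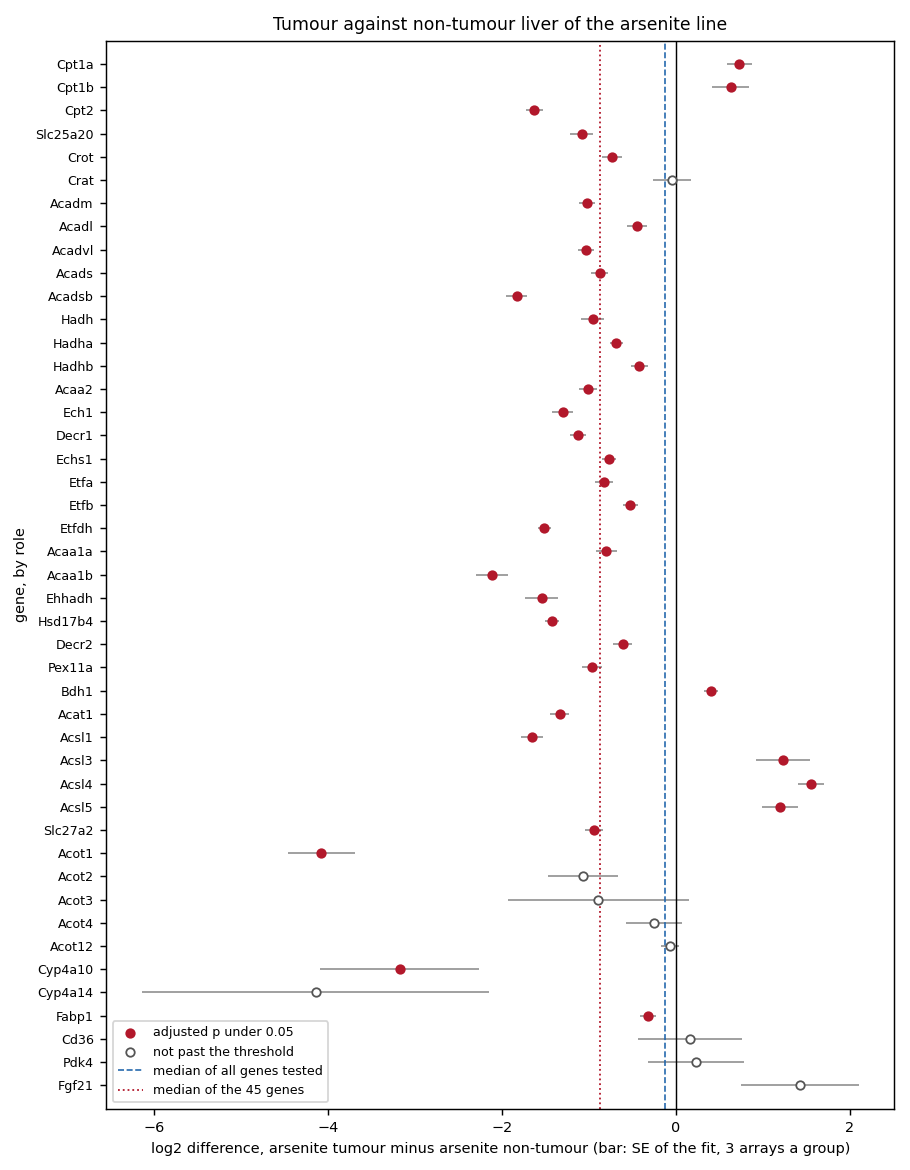
Log2 difference of each gene, arsenite tumour minus arsenite non-tumour, with the SE of the fit (3 arrays a group). Filled points passed an adjusted p of 0.05, and open points did not. The dashed line is the median of all genes at -0.13 and the dotted line the median of the 45 genes at -0.88, and Acot1, Cyp4a10 and Cyp4a14 lie furthest to the left.

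Since many of these genes are known targets of PPAR-alpha, their promoters were searched for its binding motif, a direct repeat of AGGTCA with 1 base between the copies, on both strands. RefSeq promoter windows (GRCm38.p6, 250 bases before to 50 after a gene's start) were at hand for 37 of the 45 genes, as 40 windows. The 8 genes without a window, which were not searched, were Cpt1b, Crat, Acaa2, Decr1, Hsd17b4, Acat1, Cyp4a10 and Cyp4a14. No window held the exact repeat, which is in 0.0396% of 32851 windows of all genes. With up to 2 mismatches over the 12 letters, 7 of the 40 windows (17.5%) held it, against 3.86% of all windows. The single copy AGGTCA, which every exact repeat contains, was in 27.5% of the members' windows and in 16.3% of all. The 2 sets of windows also differed in composition, with a median of 15.5 CG pairs in the members' windows and 7 in all. The 7 best matches are shown, read on the strand of the repeat, with capitals for the letters equal to the motif.
Fabp1: AGGcCAtAGGTCA
Acot12: AGGTgAgAGGTCA
Slc25a20: AGGTgAaAGGTCg
Etfa: AGGgCAaAGGTaA
Echs1: AGGTCAcgGGTCc
Acot4: cGGcCAaAGGTCA
Cd36: AaGTCAgAGGcCA

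Of these 7, Fabp1, Slc25a20, Etfa and Echs1 were lower in arsenite tumours than in arsenite non-tumour tissue, and Acot12, Acot4 and Cd36 were not called. None of the 5 higher genes with a window held a match, while 4 of the 25 lower genes and 3 of the 7 genes not called did. Among the genes with a window, a match was thus not more frequent in lower genes than in genes not called. These counts are too small to compare the shares. A match describes letters and is not a binding site shown by these data. The whole windows are given for the 2 best matches, Fabp1 and Acot12, of which the first was called and the second was not, and for Slc25a20 and Etfa, a transporter and an electron carrier that were both lower in tumours. They run 5′ to 3′ on the gene's strand, with the matched stretch in capitals. The windows lie at chr6:71199629-71199928 (plus strand), chr13:91741271-91741570 (plus strand), chr9:108661886-108662185 (plus strand) and chr9:55512194-55512493 (minus strand), in this order.
Fabp1: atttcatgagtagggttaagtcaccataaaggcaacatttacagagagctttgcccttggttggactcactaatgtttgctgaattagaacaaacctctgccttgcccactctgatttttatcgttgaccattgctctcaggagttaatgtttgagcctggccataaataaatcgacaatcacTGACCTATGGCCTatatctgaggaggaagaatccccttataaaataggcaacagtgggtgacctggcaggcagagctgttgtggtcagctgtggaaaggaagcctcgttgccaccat
Acot12: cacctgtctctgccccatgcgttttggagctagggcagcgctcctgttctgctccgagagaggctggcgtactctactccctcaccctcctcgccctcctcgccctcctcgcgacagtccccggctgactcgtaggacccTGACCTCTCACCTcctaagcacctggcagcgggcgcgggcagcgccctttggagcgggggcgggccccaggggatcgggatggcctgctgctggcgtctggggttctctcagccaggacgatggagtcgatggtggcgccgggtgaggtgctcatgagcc
Slc25a20: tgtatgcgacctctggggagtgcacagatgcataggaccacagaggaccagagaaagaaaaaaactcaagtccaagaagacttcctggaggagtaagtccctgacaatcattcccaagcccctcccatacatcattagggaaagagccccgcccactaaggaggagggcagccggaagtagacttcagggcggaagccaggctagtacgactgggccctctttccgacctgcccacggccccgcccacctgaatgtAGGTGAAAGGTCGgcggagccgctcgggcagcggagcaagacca
Etfa: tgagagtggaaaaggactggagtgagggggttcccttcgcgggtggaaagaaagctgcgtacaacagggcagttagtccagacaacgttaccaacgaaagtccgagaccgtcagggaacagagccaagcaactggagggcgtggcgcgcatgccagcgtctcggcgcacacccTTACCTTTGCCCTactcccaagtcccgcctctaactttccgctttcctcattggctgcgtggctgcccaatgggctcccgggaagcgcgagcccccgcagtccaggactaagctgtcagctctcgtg
The matched stretches begin at bases -67 and -110 from the gene's start in Fabp1 and Acot12, at base 6 in Slc25a20 and at base -77 in Etfa.

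In the carnitine shuttle the entry enzyme and the later steps moved apart. Cpt1a, the rate-limiting carnitine palmitoyltransferase of liver, stood at 5.60, 5.79 and 5.51 in arsenite tumours, against 5.04, 4.86 and 4.79 in arsenite non-tumour tissue, 4.69, 4.83 and 4.82 in arsenite normal liver, and 5.34, 4.77 and 5.10 in control non-tumour tissue. All 3 tumours lay above all 9 other arrays, and the difference from arsenite non-tumour tissue was 0.73 ± 0.14 (SE, n = 3 each; limma adjusted p = 0.0019). A second Cpt1a probe gave a smaller difference against control non-tumour tissue, 0.29, with an adjusted p over probes of 0.11 in the limma fit, against 0.56 for the brighter probe. When the arrays were scaled to the spike-ins the first difference was 0.52 and was no longer called, at an adjusted p of 0.16.

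Cpt2, the inner-membrane partner, was at 4.30, 4.21 and 4.2 in arsenite tumours, against 5.90, 5.91 and 5.79 in arsenite non-tumour tissue, 5.78, 5.68 and 5.72 in arsenite normal liver, and 5.64, 5.92 and 6.0 in control non-tumour tissue. The groups did not overlap, and tumours were 3.09-fold lower than arsenite non-tumour tissue (log2 difference -1.63 ± 0.10, limma adjusted p = 1.1e-06). Slc25a20, the carnitine-acylcarnitine carrier, was also lower, with a log2 difference of -1.09 ± 0.13. Crot, which makes carnitine esters of medium chains in peroxisomes, was lower than in arsenite non-tumour tissue by -0.74 on the log2 scale but not called against arsenite normal liver (-0.25, limma adjusted p = 0.096). Crat, which handles acetyl groups, differed by -0.05. Cpt1b, the muscle form, was the dimmest of the shuttle at a mean of -1.80 in tumours and -2.43 in arsenite non-tumour tissue. It was at -1.75, -1.74 and -1.9 in arsenite tumours and -2.23, -2.26 and -2.8 in arsenite non-tumour tissue. It was at -2.22, -1.96 and -1.74 in arsenite normal liver and -2.77, -2.01 and -2.3 in control non-tumour tissue. Its difference of 0.63 was called, but a second probe (0.56, limma adjusted p = 0.50 over probes) and 9 of the alternative settings, among them leaving out arsenite non-tumour 3, arsenite tumour 1 or arsenite tumour 2, did not call it.

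All 12 enzymes of the mitochondrial beta-oxidation cycle were lower in arsenite tumours than in arsenite non-tumour tissue, beside 29.9% of all genes. Their log2 differences were -0.42 to -1.83, with a median of -0.98. The chain-length dehydrogenases did not fall by equal amounts. Acadsb, which acts on short branched chains, differed most. It was at 1.5, 1.37 and 1.67 in arsenite tumours against 3.45, 3.36 and 3.22 in arsenite non-tumour tissue, 3.42, 3.30 and 3.39 in arsenite normal liver, and 3.1, 3.47 and 3.41 in control non-tumour tissue. Tumours did not overlap any other group, at a 3.56-fold lower signal than in arsenite non-tumour tissue (log2 difference -1.83 ± 0.12, limma adjusted p = 1.7e-06). Acadm, for medium chains, was at 5.69, 5.54 and 5.78 in arsenite tumours against 6.66, 6.72 and 6.69 in arsenite non-tumour tissue, 6.46, 6.59 and 6.67 in arsenite normal liver, and 6.55, 6.71 and 6.77 in control non-tumour tissue. Its log2 difference from arsenite non-tumour tissue was -1.02 ± 0.10. Acadvl, for very long chains, differed by -1.03, Acads, for short chains, by -0.88, and Acadl, for long chains, by -0.45. Acadl was the dehydrogenase closest to its level outside tumours, at 3.06, 2.84 and 2.64 in arsenite tumours against 3.18, 3.33 and 3.37 in arsenite non-tumour tissue. With the replicate number as a block its call was lost in the fit of the 6 arrays of these groups (-0.45, limma adjusted p = 0.088) and held in that of all 12 (limma adjusted p = 0.018). Against arsenite normal liver (-0.33, limma adjusted p = 0.033) it was lost without any 1 arsenite normal array or without arsenite tumour 2 or 3, at a limma adjusted p of 0.061 to 0.12.

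The later enzymes of the cycle followed the same direction. Hadha, the alpha subunit of the trifunctional protein for long chains, was at 2.06, 2.09 and 1.98 in arsenite tumours, against 2.79, 2.70 and 2.70 in arsenite non-tumour tissue, 2.78, 2.72 and 2.68 in arsenite normal liver, and 2.77, 2.88 and 2.82 in control non-tumour tissue. The log2 difference of Hadha from arsenite non-tumour tissue was -0.69 ± 0.08 (limma adjusted p = 4.9e-05), with no overlap between groups. Its partner Hadhb, the beta subunit, differed by -0.42, and was not called against arsenite normal liver (-0.24, limma adjusted p = 0.059) or, against arsenite non-tumour tissue, after quantile normalisation (-0.15, adjusted p = 0.28 in limma). Ech1, which moves double bonds of unsaturated chains, was at 4.50, 4.14 and 4.13 in arsenite tumours against 5.59, 5.50 and 5.58 in arsenite non-tumour tissue, 5.42, 5.40 and 5.50 in arsenite normal liver, and 5.40, 5.60 and 5.77 in control non-tumour tissue. All tumours were below all other arrays, by -1.30 ± 0.12 against arsenite non-tumour tissue. Decr1, which reduces dienoyl-CoA, was lower by -1.13, the thiolase Acaa2 by -1.01, the short-chain dehydrogenase Hadh by -0.95 and the hydratase Echs1 by -0.77.

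Electrons from the acyl-CoA dehydrogenases pass through the electron transfer flavoprotein to its oxidoreductase and on to ubiquinone. Etfdh, the oxidoreductase, had the smallest p of the 45 genes. It was at 4.82, 4.62 and 4.71 in arsenite tumours, against 6.19, 6.26 and 6.24 in arsenite non-tumour tissue, 6.15, 6.01 and 6.06 in arsenite normal liver, and 6.27, 6.23 and 6.24 in control non-tumour tissue. Tumours lay more than a log2 unit below every other array, with a 2.85-fold lower signal than in arsenite non-tumour tissue (log2 difference -1.51 ± 0.08, limma adjusted p = 4.1e-07). The flavoprotein subunits Etfa and Etfb were lower by smaller amounts, -0.83 and -0.53.

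All 6 peroxisomal genes were lower in arsenite tumours than in arsenite non-tumour tissue, beside 29.9% of all genes. Their median log2 difference was -1.19. Acaa1b, a peroxisomal thiolase, was at 5.17, 4.41 and 4.56 in arsenite tumours, against 6.68, 6.74 and 7.05 in arsenite non-tumour tissue, 6.72, 6.65 and 6.60 in arsenite normal liver, and 7.05, 6.80 and 6.81 in control non-tumour tissue. The difference was -2.11 ± 0.18, a 4.33-fold lower signal (limma adjusted p = 9.3e-06), while its close paralogue Acaa1a differed by -0.80. The array's probes may not fully separate the 2 paralogues. Ehhadh, the bifunctional enzyme of the straight-chain path, was at 3.70, 2.97 and 3.41 in arsenite tumours against 4.60, 4.88 and 5.25 in arsenite non-tumour tissue, 4.77, 4.82 and 4.72 in arsenite normal liver, and 4.87, 5.02 and 4.91 in control non-tumour tissue. Its difference from arsenite non-tumour tissue was -1.55 ± 0.19. Hsd17b4, the bifunctional enzyme for branched chains and bile acid precursors, was at 5.81, 5.68 and 5.69 in arsenite tumours against 7.16, 7.18 and 7.13 in arsenite non-tumour tissue, 7.07, 7.03 and 7.06 in arsenite normal liver, and 7.09, 7.20 and 7.24 in control non-tumour tissue. Its difference from arsenite non-tumour tissue was -1.43 ± 0.08 (limma adjusted p = 4.6e-07). Both bifunctional enzymes thus had tumour arrays below all other arrays. Pex11a, which promotes division of peroxisomes, was lower by -0.96 and the peroxisomal reductase Decr2 by -0.61. Decr2 was not called after quantile normalisation (-0.32, limma adjusted p = 0.063).

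The ketone body genes split. Acat1, the mitochondrial acetoacetyl-CoA thiolase, was at 4.36, 4.19 and 4.10 in arsenite tumours against 5.66, 5.53 and 5.45 in arsenite non-tumour tissue, 5.62, 5.37 and 5.31 in arsenite normal liver, and 5.55, 5.58 and 5.65 in control non-tumour tissue. All tumours lay below all other arrays, at a log2 difference of -1.33 ± 0.11 from arsenite non-tumour tissue (limma adjusted p = 6.8e-06). Bdh1, which interconverts acetoacetate and beta-hydroxybutyrate, had a mean of 6.77 ± 0.06 in arsenite tumours and 6.37 ± 0.08 in arsenite non-tumour tissue (SD, n = 3 each), a difference of 0.40 (limma adjusted p = 0.0026). Its other 2 probes gave differences of 0.47 and 1.03. Scaled to the spike-ins, the first difference was 0.19 and was not called (limma adjusted p = 0.54).

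Among the acyl-CoA synthetases the forms moved in opposite directions. Acsl1, the main long-chain synthetase of hepatocytes, was at 6.27, 6.32 and 6.44 in arsenite tumours, against 7.92, 8.04 and 8.05 in arsenite non-tumour tissue, 7.96, 8.05 and 8.06 in arsenite normal liver, and 7.86, 8.35 and 8.33 in control non-tumour tissue. Acsl4, which prefers arachidonate, was at 5.03, 5.38 and 5.12 in arsenite tumours, against 3.36, 3.90 and 3.61 in arsenite non-tumour tissue, 3.95, 4.11 and 3.99 in arsenite normal liver, and 3.62, 3.72 and 3.94 in control non-tumour tissue. Neither gene overlapped between tumours and the other arrays. Against arsenite non-tumour tissue Acsl1 was 3.16-fold lower (log2 difference -1.66 ± 0.13, limma adjusted p = 4.4e-06) and Acsl4 was 2.94-fold higher (1.56 ± 0.15, limma adjusted p = 1.9e-05).

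Acsl5, a synthetase of mitochondria and endoplasmic reticulum, was higher in tumours by 1.20 ± 0.21 on the log2 scale, with tumour means of 5.72 against 4.52 in arsenite non-tumour tissue. Acsl3, which sits on forming lipid droplets, was at 0.75, 0.91 and 0.29 in arsenite tumours, against -0.54, -0.44 and -0.77 in arsenite non-tumour tissue, 0.05, 0.93 and -0.14 in arsenite normal liver, and 0.18, -0.14 and -0.77 in control non-tumour tissue. It was called against arsenite non-tumour tissue (1.23 ± 0.31) but overlapped arsenite normal liver, where the difference of 0.37 was not called (limma adjusted p = 0.34). Its call against control non-tumour tissue (0.90, limma adjusted p = 0.033) was lost without arsenite tumour 1 or 2 or control non-tumour 2 or 3 (limma adjusted p of 0.059 to 0.12). Slc27a2, a very-long-chain synthetase and transporter, was lower in tumours by -0.95.

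**Figure D3:**
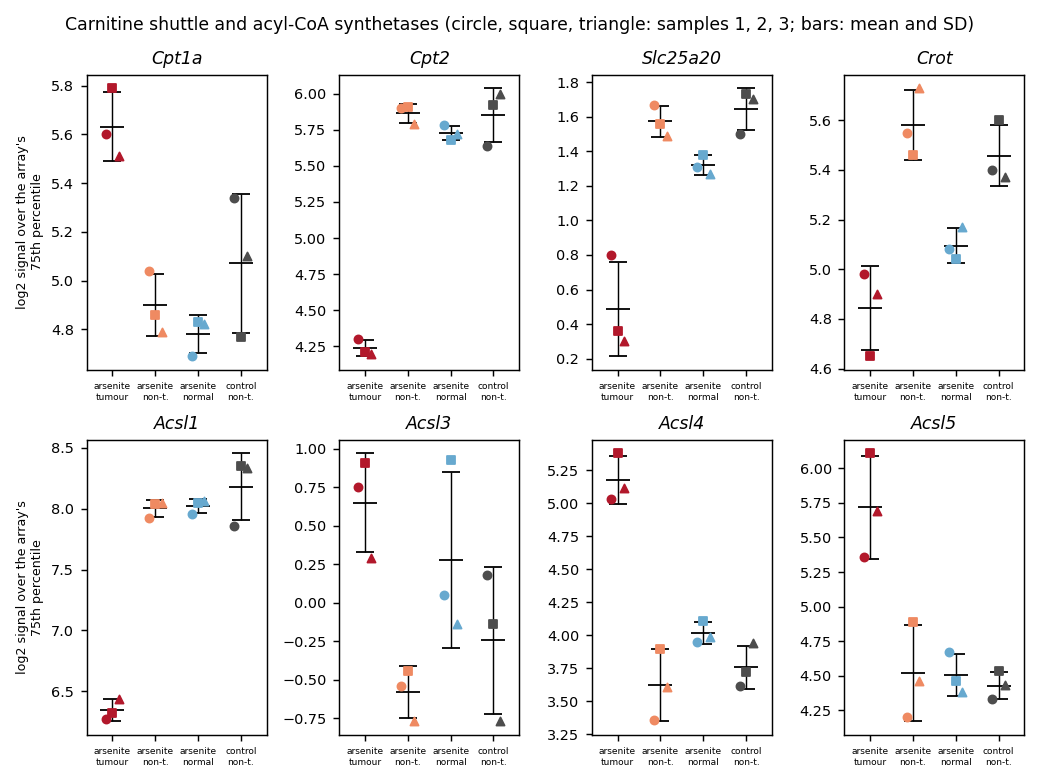
Log2 signal over the array's 75th percentile for 4 genes of the carnitine shuttle and 4 long-chain acyl-CoA synthetases, by group; symbols mark samples 1, 2 and 3, and bars the mean and SD. Tumours are above all other arrays for Cpt1a, Acsl4 and Acsl5, below them for Cpt2, Slc25a20, Crot and Acsl1, and among them for Acsl3. Each panel has its own axis.

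Acyl-CoA thioesterases release free fatty acids from acyl-CoA. Acot1, the cytosolic form, had the largest called difference of the 45 genes between arsenite tumours and arsenite non-tumour tissue. It was at -0.06, -0.91 and 0.02 in arsenite tumours, against 3.41, 3.63 and 4.24 in arsenite non-tumour tissue, 2.92, 2.81 and 2.87 in arsenite normal liver, and 3.44, 4.95 and 3.75 in control non-tumour tissue. The groups were far apart, at a 16.9-fold lower signal than in arsenite non-tumour tissue (log2 difference -4.08 ± 0.38, limma adjusted p = 1.6e-05). Acot2, the mitochondrial form encoded beside it on chromosome 12, was not well above background on any tumour array, which bounds it at least 1.94-fold lower than in arsenite non-tumour tissue, where it missed the threshold (measured means -3.54 and -2.47, limma adjusted p = 0.052; 0.024 and 0.033 with the replicate block on 6 and on 12 arrays). It was called against control non-tumour tissue, at least 2.60-fold lower in tumours (measured means -3.54 and -2.05, limma adjusted p = 0.012). Acot3, Acot4 and Acot12 differed by -0.89, -0.25 and -0.07 without a call. Acot1 to Acot4 are close paralogues in 1 cluster, and the array's probes may share some of their signal.

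The omega-oxidation genes varied widely between livers. Cyp4a10, a fatty acid omega-hydroxylase induced by PPAR-alpha, was at 1.45, 1.74 and 3.32 in arsenite tumours, against 4.0, 4.17 and 7.89 in arsenite non-tumour tissue, 4.18, 5.12 and 4.90 in arsenite normal liver, and 6.57, 5.40 and 5.59 in control non-tumour tissue. All 3 tumours were below all other arrays, by -3.18 ± 0.92 against arsenite non-tumour tissue (limma adjusted p = 0.016). Without arsenite non-tumour 3 the difference was -1.91 (limma adjusted p = 0.020), and without arsenite tumour 1 or 2 the call was lost (-2.82 and -2.97, adjusted p = 0.055 and 0.0502 in limma). It was also lost in the fit of only the 6 arrays compared (-3.18, limma adjusted p = 0.066). Against arsenite normal liver (-2.56, limma adjusted p = 0.041) it was lost without arsenite tumour 1 or 2 or any arsenite normal array, at limma adjusted p values of 0.058 to 0.12. One of its 3 probes was not called against arsenite normal liver (-2.63, limma adjusted p = 0.064 over probes).

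Cyp4a14, its neighbour on chromosome 4, was at -3.72, -5.35 and 0.18 in arsenite tumours, against -1.60, -1.22 and 6.38 in arsenite non-tumour tissue, -1.57, 0.61 and -0.12 in arsenite normal liver, and 3.24, 1.36 and 2.78 in control non-tumour tissue. Only 1 tumour array was well above background, and the groups overlapped. The difference from arsenite non-tumour tissue was -4.15 ± 1.99 and not called (limma adjusted p = 0.11), although it passed with the replicate number as a block on the 6 arrays of these groups (adjusted p = 0.027 in limma), but not with that block on all 12 arrays (adjusted p = 0.062 in limma). Against control non-tumour tissue it was called (-5.42, limma adjusted p = 0.044), a call lost without any 1 control array or without arsenite tumour 1 or 2 (limma adjusted p of 0.063 to 0.15). Without arsenite non-tumour 3 the difference from arsenite non-tumour tissue was -1.55 and not called (limma adjusted p = 0.39). Since 2 of the 3 tumour arrays were not well above background for Cyp4a14, the sizes of its tumour differences are not exact, and no size is given without arsenite tumour 3. In arsenite tumours and arsenite non-tumour tissue alike, sample 3 held the highest value of both Cyp4a genes.

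The last 4 genes carry uptake, binding and control. Fabp1, the abundant fatty acid binding protein of hepatocytes, was at 9.40, 9.62 and 9.51 in arsenite tumours, against 9.87, 9.81 and 9.80 in arsenite non-tumour tissue, 10.10, 9.90 and 9.93 in arsenite normal liver, and 9.82, 9.97 and 10.01 in control non-tumour tissue. The groups lay close together without overlap, at -0.32 ± 0.09 (limma adjusted p = 0.017). After quantile normalisation the difference was -0.02 (limma adjusted p = 0.85), and with the replicate block it was not called in the fit of 6 arrays (-0.32, limma adjusted p = 0.080) but was in that of 12 (limma adjusted p = 0.034). It was also lost without arsenite non-tumour 1 or without arsenite tumour 1 (limma adjusted p = 0.056 and 0.057).

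Cd36, the fatty acid translocase of the cell surface, was at 0.56, 0.11 and 0.71 in arsenite tumours, against -1.01, 0.00 and 1.90 in arsenite non-tumour tissue, -0.76, -0.39 and -1.10 in arsenite normal liver, and -0.19, -1.06 and -1.25 in control non-tumour tissue. Arsenite tumours overlapped arsenite non-tumour tissue through its sample 3 (difference 0.16, limma adjusted p = 0.84), and the differences of 1.21 and 1.30 from arsenite normal liver and control non-tumour tissue were not called, although these groups did not overlap with tumours (limma adjusted p = 0.12 and 0.097). They were called in fits of only the 6 arrays compared (limma adjusted p = 0.0085 and 0.017). Pdk4, the kinase that shuts pyruvate dehydrogenase when fat is burned, was at 2.0, 0.70 and 1.05 in arsenite tumours, against 0.61, 1.0 and 1.46 in arsenite non-tumour tissue, 2.48, 0.92 and 0.73 in arsenite normal liver, and -0.55, 0.84 and -0.78 in control non-tumour tissue. Its groups overlapped in every tumour comparison. The difference from control non-tumour tissue was 1.42 (limma adjusted p = 0.055) and passed without control non-tumour 2 (1.92, limma adjusted p = 0.018). It also passed under quantile normalisation, the percentile over detected probes, normexp background correction, the filter on all 12 arrays and the scaling to spike-ins (limma adjusted p of 0.024 to 0.048).

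Fgf21, a hormone that liver releases in fasting, was at 1.35, 0.89 and -0.79 in arsenite tumours, against -1.26, -0.17 and -1.38 in arsenite non-tumour tissue, -1.18, 0.74 and -1.5 in arsenite normal liver, and -0.04, -0.83 and -1.13 in control non-tumour tissue. Its first 2 tumour arrays were above all others and the third was within their range. The difference of 1.43 from arsenite non-tumour tissue was not called (limma adjusted p = 0.11), and without arsenite tumour 3 it was 2.06 (limma adjusted p = 0.027). With the replicate block on all 12 arrays the adjusted p was 0.048 in limma, and on 6 arrays 0.070. Without arsenite tumour 3, Fgf21 was also called against arsenite normal liver (1.77, limma adjusted p = 0.049) and control non-tumour tissue (1.79, limma adjusted p = 0.047).

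**Figure D4:**
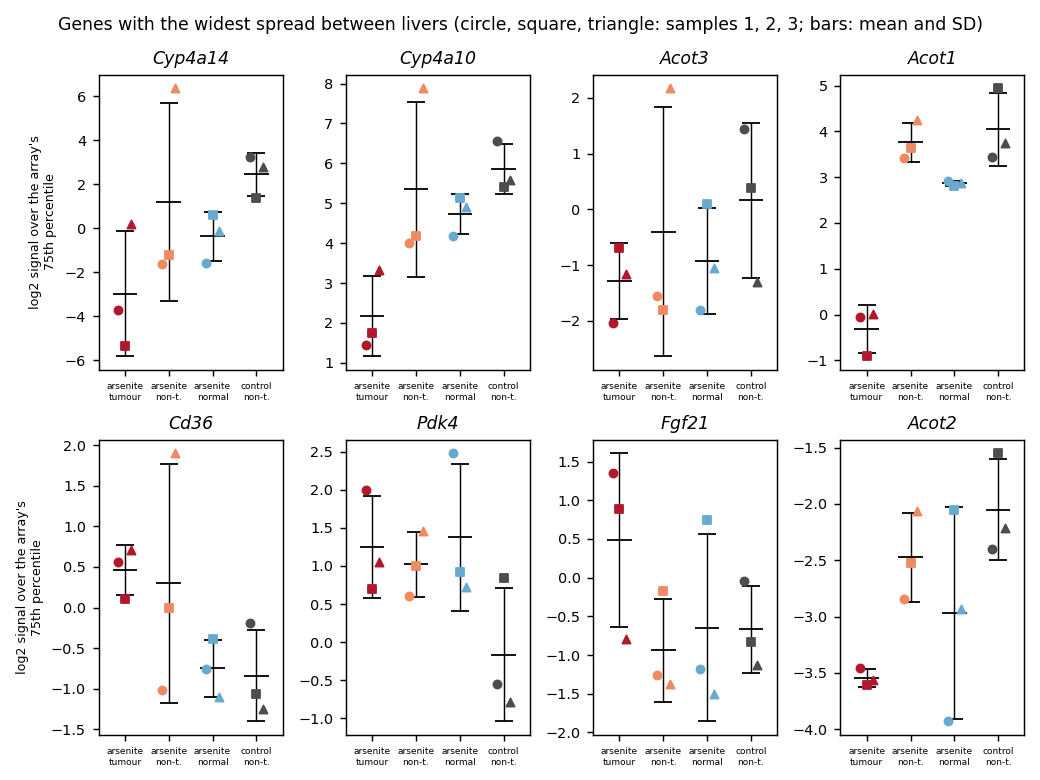
Log2 signal over the array's 75th percentile for the 8 genes with an SD above 0.5 outside tumours, by group; symbols mark samples 1, 2 and 3, and bars the mean and SD. Arsenite non-tumour 3 (triangle) is the highest of all 12 arrays for Cyp4a14, Cyp4a10, Acot3 and Cd36, while Acot1 separates all tumours from all other arrays. Each panel has its own axis.

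Outside tumours no member was called in any of the 3 comparisons. Between arsenite non-tumour tissue and arsenite normal liver, limma called 0 of the 45 genes and 0.0% of all genes, and 4 of the 45 had an unadjusted p under 0.05, beside 6.83% of all genes. Between arsenite non-tumour and control non-tumour tissue, which shared a slide, 0 were called, beside 0.00552% of all genes, and 1 had an unadjusted p under 0.05, beside 5.63%. Between arsenite normal liver and control non-tumour tissue, 0 were called, beside 0.0% of all genes, and 7 had an unadjusted p under 0.05, beside 6.52%. No alternative setting called a member in these comparisons.

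The genes with the smallest p in these comparisons are given as values. Crot was at 5.55, 5.46 and 5.73 in arsenite non-tumour tissue, against 5.08, 5.04 and 5.17 in arsenite normal liver and 5.40, 5.60 and 5.37 in control non-tumour tissue, so arsenite normal liver lay below both other groups without overlap. The limma adjusted p was 0.40 and 0.61 in its comparisons with these groups. Arsenite normal liver also had a slide of its own. Groups did not overlap for 15.2% of all genes between arsenite non-tumour tissue and arsenite normal liver. Between arsenite normal liver and control non-tumour tissue this share was 13.5%. Acsl3 differed by -0.86 between arsenite non-tumour tissue and arsenite normal liver (limma adjusted p = 0.66), and Acot1 by -1.18 between arsenite normal liver and control non-tumour tissue (limma adjusted p = 0.62). Between arsenite non-tumour and control non-tumour tissue, Decr2 was at 5.60, 5.65 and 5.78 against 6.17, 5.78 and 5.99 (-0.30, limma adjusted p = 0.73). Pdk4 differed by 1.19 in the same comparison (limma adjusted p = 0.91).

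Most members varied little between livers. The SD within the 3 groups outside tumours, pooled, was under 0.25 for 33 of the 45 genes and had a median of 0.13, against 0.17 for all genes. It was above 0.5 for 8 genes: Cyp4a14 (2.74), Acot3 (1.61), Cyp4a10 (1.35), Cd36 (0.93), Fgf21 (0.86), Pdk4 (0.79), Acot2 (0.64) and Acot1 (0.52). Acot3 shows the pattern, at -1.56, -1.81 and 2.18 in arsenite non-tumour tissue, against -1.80, 0.09 and -1.05 in arsenite normal liver and 1.44, 0.38 and -1.31 in control non-tumour tissue. For these 8 genes 3 arrays a group limit the precision most.

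Other genes of the pathway, from lists outside the 45, moved in the same direction as the core enzymes in arsenite tumours against arsenite non-tumour tissue. Of 24 genes listed as other mitochondrial beta-oxidation, 21 were lower and 1 was higher, with a median log2 difference of -1.14. All genes stood at 29.9% lower and 17.1% higher. The list was drawn broadly and also holds genes of amino acid and propionate breakdown and the peroxisomal enzyme Nudt7. Nudt7, which cleaves coenzyme A esters, differed by -3.39 and Acsm1, a medium-chain synthetase, by -2.80. Of 22 other peroxisomal oxidation genes, 17 were lower and 2 higher (median -1.10). In this list Abcd2, a peroxisomal transporter of very long chains, was at least 6.83-fold higher in tumours, since it was not well above background in arsenite non-tumour tissue (measured means -0.31 and -5.27). Hacl1, which splits branched chains in alpha-oxidation, differed by -2.67.

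Peroxisome biogenesis genes were lower in 14 of 15 cases and higher in none (median -0.65). Of 8 other omega-oxidation genes, 7 were lower (median -2.04), among them the male-biased hydroxylases Cyp4a12a and Cyp4a12b, by -5.48 and -5.47, whose probes may share signal. Of 6 ketogenesis genes, 3 were lower and 1 was higher, beside 29.9% and 17.1% of all genes. Of 5 genes of malonyl-CoA, the inhibitor of Cpt1, 1 was lower (Mlycd, which breaks it down, -0.94) and 1 was higher (Acaca, which makes it, 0.54). Against arsenite normal liver and control non-tumour tissue no gene of this list, Acaca included, was called higher in tumours.

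The lists on control and transport were mixed. Of 21 regulators, 8 were lower and 2 higher, beside 29.9% and 17.1% of all genes, with a median of -0.23. Ppara, the gene of PPAR-alpha, was at 5.93, 5.61 and 5.42 in arsenite tumours against 5.99, 5.83 and 5.83 in arsenite non-tumour tissue, and the groups overlapped (-0.23 ± 0.13, limma adjusted p = 0.17). It was called lower against arsenite normal liver (-0.45, limma adjusted p = 0.018) and control non-tumour tissue (-0.42, adjusted p = 0.024 in limma). Ppargc1a, a coactivator of oxidative genes, differed by 0.15 from arsenite non-tumour tissue without a call (limma adjusted p = 0.43). Sirt3, a mitochondrial deacetylase, differed by -1.64 and the bile acid receptor gene Nr1h4 by -1.60.

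Of 28 other PPAR-alpha targets, 11 were lower and 10 higher, and of 15 other genes of fatty acid uptake and binding, 7 were lower and 5 higher. The shares of all genes were 29.9% lower and 17.1% higher. Among the lower targets, Mgll had a mean of 3.18 in arsenite tumours against 5.08 in arsenite non-tumour tissue, and Slc25a42 3.49 against 5.16. Cidea, a lipid droplet protein, was at 3.00, 4.40 and 3.82 in arsenite tumours against -4.90, -5.01 and -2.81 in arsenite non-tumour tissue, at least 104-fold higher because it was not well above background there. Vnn3, a pantetheinase, was higher by 3.22, and Fabp5, a fatty acid binding protein of skin and immune cells, by 3.44. Slc27a5, the bile acid and very-long-chain synthetase of liver, was lower by -1.52.

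**Figure D5:**
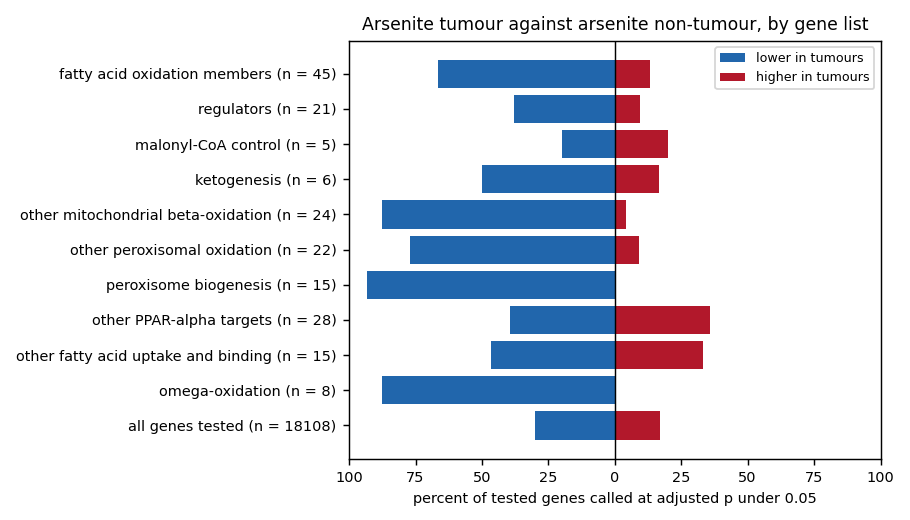
Percent of tested genes called lower (to the left) and higher (to the right) at an adjusted p of 0.05 in arsenite tumours against arsenite non-tumour tissue, for the 45 genes, 9 other lists of the pathway and all 18108 genes. All genes stand at 29.9% lower and 17.1% higher.

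Markers of other cells were also read. In arsenite tumours against arsenite non-tumour tissue, 29.9% of all genes were called lower and 17.1% higher. The summed signal of 12 Kupffer cell and macrophage markers was 52.3 to 93.8 in arsenite tumours against 145 to 196 in arsenite non-tumour tissue, with 10 of 12 lower. That of 10 stellate cell and fibroblast markers was 40.3 to 87.2 against 120 to 141, with 5 lower and 4 higher and a median log2 difference of 0.22. Such sums are weighted to the brightest markers of a list. Of 8 T and B cell markers 4 were tested, with a sum of 126 to 173 against 26.8 to 54.4, and 1 was higher. Of 8 adipocyte markers 3 were tested, with a sum of 6.98 to 10.1 against 2.64 to 3.1, and Adipoq, Lep, Cfd, Plin1 and Retn did not pass the filter. Of 12 hepatocyte markers, 4 were lower and 1 higher, with a median log2 difference of -0.20 beside -0.88 for the 45 genes. Endothelial markers had 3 lower and 2 higher of 10, close to the shares of all genes. None of 5 bile duct markers was called, and of 8 striated muscle markers only 1 was tested and it was not called. Fabp4, which is both an adipocyte marker and a fatty acid binding protein, was higher by 1.75 and made up most of the adipocyte sum. The part of these cells in the differences of the 45 genes was not tested.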

How the data were processed

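RNA of 12 livers or tumours was labelled with Cy3 and hybridised singly to 1-colour Agilent mouse arrays. The deposited scanner files hold the processed signal intensity of each spot; background subtraction was done in Agilent Feature Extraction, version 10.7.3.1 per the file headers and 12.0.3.1 per the submitters' processing notes. The deposited value table is a linear ratio, the same signal over each array's 75th percentile over all spots, with no centring, and served as an alternative. Here the processed intensity, which the authors deposited unlogged, was divided by its 75th percentile among the 59305 spots that are not controls, and log2 was taken. A probe was kept where some group had it well above background throughout (24152 probes, 18108 genes), and the brightest stood for a gene. Genes were named through the files' accessions and RefSeq.

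One limma fit (version 3.58.1, R 4.3.3) of all 12 arrays gave 6 comparisons of 4 group means, with empirical Bayes and Benjamini-Hochberg adjustment over all genes in each, called under 0.05. Coordinates of promoters are RefSeq's GRCm38.p6. Motifs were counted in all windows of the same length. Values in every array are given for the 12 called genes with the largest difference between arsenite tumour and arsenite non-tumour tissue, the 2 smallest p in each comparison outside tumours, genes whose probes disagree, and central genes of the pathway. For the other lists, up to 4 called genes with the smallest p were named, besides Ppara and Ppargc1a, and a few more are left unreported. The members and lists were chosen with earlier results of these data known. The fit was tested on simulated data. Equal replicate numbers deviated together in arsenite tumours and arsenite non-tumour tissue (correlations of 0.13 to 0.23 over genes), so these were treated as pairs in the replicate block. In the other 5 comparisons they ranged from -0.12 to 0.10.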

Additional observations from a re-analysis of the deposited data

How the results depend on the processing

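The counts of members called lower or higher were recomputed under 23 other settings and 1 chosen after seeing the data, the scaling to the 6 bright spike-ins. Under that scaling 3 members were higher in arsenite tumours than in arsenite non-tumour tissue and 3 than in control non-tumour tissue, where 6 and 5 were reported; its SE also carries the spread of the spike-ins. All other counts stayed within 1.5 times the reported ones, and no called difference changed sign. Against arsenite normal liver, scaling to the spike-ins lost the lower calls of Slc25a20, Acadl, Hadha, Etfb, Acaa1a, Decr2 and Fabp1. It also lost the higher call of Bdh1 there. Leaving out 1 array in turn gave 28 to 31 lower and 5 to 7 higher members against arsenite non-tumour tissue. Calls held under every setting for 28 of 36 members against arsenite non-tumour tissue, 23 of 32 against arsenite normal liver and 28 of 37 against control non-tumour tissue. With the replicate block on the 6 arrays of arsenite tumours and arsenite non-tumour tissue, 30 were lower and 6 higher, and on all 12 arrays 31 and 7. Besides the changed calls given with the genes, the replicate block changed no other call there. In the comparison with control non-tumour tissue, whose numbers do not pair, the replicate block on 6 arrays lost Cpt1a (0.56, limma adjusted p = 0.083), Bdh1 (0.43, 0.057) and Acadl (-0.52, 0.066) and gained Cd36 (1.30, 0.023) and Fgf21 (1.15, 0.043). Against arsenite normal liver it lost Acadl (-0.33, limma adjusted p = 0.14) and Fabp1 (-0.46, 0.058) and gained Cd36 (1.21, 0.037), and on 12 arrays it lost Acadl (0.058) and gained Hadhb (-0.24, 0.046). Further calls were gained when 1 array was left out: Fgf21 (1.83) and Acot2 (-1.05) against arsenite normal liver, without arsenite normal 2 and 1, and Cpt1b (0.74) and Acot12 (-0.31) against control non-tumour tissue, without control non-tumour 2. The slide could not be fitted as a block in the tumour comparisons or in those with arsenite normal liver, because each slide with tumours or arsenite normal liver holds 1 group. Arsenite non-tumour and control non-tumour tissue shared a slide, so their 6-array fit is the value within it. The signal over background limits Acot2, Cyp4a14 and Cpt1b, which were not well above background on every array.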
